A study of Mus musculus with 24 samples.

Results

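Lysophosphatidic acid (LPA) is a small signalling lipid, and 9 of the 49172 genes in the tables were followed here because they sense it, make it or remove it. They were taken by name: 5 LPA receptors (Lpar1, Lpar2, Lpar3, Lpar4 and Lpar6), 1 LPA-producing enzyme (Enpp2, autotaxin) and 3 lipid phosphate phosphatases (Plpp1, Plpp2 and Plpp3). Earlier results of these data were known when they were chosen. The cells were Ocy454, a mouse osteocyte-like line, given vehicle, LPA, 1,25-dihydroxyvitamin D (1,25D, the hormone that acts through the vitamin D receptor) or both, and RNA was taken at 2 h and at 8 h. There were 8 groups of 3 libraries, 24 in all, and the labels give neither dose nor passage and do not say whether separate cultures stand behind the 3 libraries of each group. The p-values therefore measure the spread between these libraries, which may be technical.

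The labels disagree on which single agent was given. Libraries whose titles and descriptions name 1,25D are stored under the file code L, and libraries titled LPA are stored under the file code D, at both times. The vitamin D targets were read first as a check. Cyp24a1, the 24-hydroxylase that degrades 1,25D and a classical target of it, had at 8 h 1, 0 and 0 counts with vehicle and 0, 1 and 0 counts under code L. It had 25, 48 and 29 counts under code D and 35, 28 and 24 with both agents, so it was high under code D and with both agents and near 0 in the libraries titled 1,25D. Vdr, the vitamin D receptor, was at 134, 112 and 130 CPM (counts scaled to library size) with vehicle at 8 h, at 70.6, 74.3 and 71.9 under code L, and at 246.5, 259.8 and 256.4 under code D. At 8 h both genes go against the titles. The check is weaker at 2 h. Cyp24a1 then had 0, 0 and 1 counts with vehicle, 0, 0 and 1 under code L, 2, 5 and 3 under code D and 1, 2 and 3 with both agents. Vdr at 2 h was at 236.3, 229.3 and 231.7 CPM with vehicle, 169.3, 183.9 and 186 under code L and 257, 211.6 and 248.7 under code D, so code D overlapped vehicle. Below, "code L" means the libraries with file code L, titled 1,25D, and "code D" the libraries with file code D, titled LPA. The vehicle and both-agent libraries, and the interaction of the agents, are the same under either naming.

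Autotaxin is a secreted lysophospholipase D that makes LPA outside cells from lysophosphatidylcholine. LPA then acts on G protein-coupled receptors: LPA1, LPA2 and LPA3 form one sequence family, the EDG family, whereas LPA4 and LPA6 are closer to purinergic receptors, and between them they couple to Gi, Gq, G12/13 and Gs. The lipid phosphate phosphatases are membrane enzymes whose active site faces the outside or the lumen and which remove the phosphate from LPA, ending its action at the receptors. In bone, LPA is known to act on osteoblasts and osteocytes, among others through LPA1.

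The promoters of 3 genes are shown so that they can be set side by side: Plpp3, which had the largest rise against vehicle past the threshold, Lpar1, the most abundant receptor, and Lpar2, which had the largest fall past it. Each is the 250 bases before the RefSeq start, 5′ to 3′ on the gene's strand, build GRCm38.p6. They lie at chr4:105157097-105157346 on the plus strand for Plpp3, chr4:58553294-58553543 on the minus strand for Lpar1 (the 1 of its 3 listed starts nearest the start of its main transcript) and chr8:69822315-69822564 on the plus strand for Lpar2. Capitals mark the only motif match found in them.
Plpp3: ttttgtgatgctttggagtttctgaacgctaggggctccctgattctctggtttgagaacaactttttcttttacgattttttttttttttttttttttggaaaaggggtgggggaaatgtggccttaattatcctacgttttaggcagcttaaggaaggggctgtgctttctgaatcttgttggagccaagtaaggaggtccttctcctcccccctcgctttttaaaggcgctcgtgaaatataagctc
Lpar1: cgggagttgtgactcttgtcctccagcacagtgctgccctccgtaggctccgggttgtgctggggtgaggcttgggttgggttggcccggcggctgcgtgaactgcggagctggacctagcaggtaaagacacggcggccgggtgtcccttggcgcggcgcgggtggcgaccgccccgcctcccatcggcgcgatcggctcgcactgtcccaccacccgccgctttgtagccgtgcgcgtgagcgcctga
Lpar2: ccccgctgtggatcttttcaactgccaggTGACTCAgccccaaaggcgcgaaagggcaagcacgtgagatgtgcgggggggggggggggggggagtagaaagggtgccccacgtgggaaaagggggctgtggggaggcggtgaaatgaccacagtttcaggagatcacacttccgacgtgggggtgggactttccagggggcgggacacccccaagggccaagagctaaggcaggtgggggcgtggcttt
The Plpp3 window held 42.4% G and C and 6 CpG, the Lpar1 window 70.0% and 28 CpG, and the Lpar2 window 64.4% and 11 CpG. Both strands were searched for TGANTCA (AP-1), TGACGTCA (cyclic AMP response element), GCGNGGGCG (EGR) and GGAATG (TEAD). Of 32851 RefSeq promoter windows of this length, 6.75%, 1.55%, 4.7% and 12.6% held these. The Lpar2 window held 1 AP-1 match, starting at base -221 from the start, and the Plpp3 and Lpar1 windows shown held none of the 4 motifs. Of the other receptors and phosphatases in the promoter table, Lpar6 held 1 TEAD match at base -23, and Lpar3, Lpar4 and Plpp2 held none. A match describes these letters only. No promoter is shown for Enpp2 and Plpp1.

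All 9 genes passed the filter on low counts and were tested among 16424 genes. The libraries held 32964439 to 33842037 estimated counts each, of which 9.01% to 16.92% came from mitochondrially encoded genes. The label osteocytic was checked against marker genes. Col1a1, Spp1, Pdpn and Runx2 averaged 25.5 to 942 TPM each, Dmp1 had 64 to 149 counts per library, and the osteocyte markers Sost (0 to 7 counts per library) and Mepe (1 count in all 24 libraries) and the osteoblast matrix gene Ibsp (0 to 6) were at or near 0. Markers of other cell types were mixed. Cd68 of the macrophage list had 370 to 556 counts per library, Sox9 of the chondrocyte list 64 to 786, Cdh5 of the endothelium list 47 to 90 and Acta1 of the muscle list 51 to 118. Others of the same lists were near 0: Ptprc had 0 to 11 counts per library, Pecam1 3 to 19, Col2a1 0 to 8, Adipoq 4 in all and Myod1 2 in all.

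**Figure D1:**
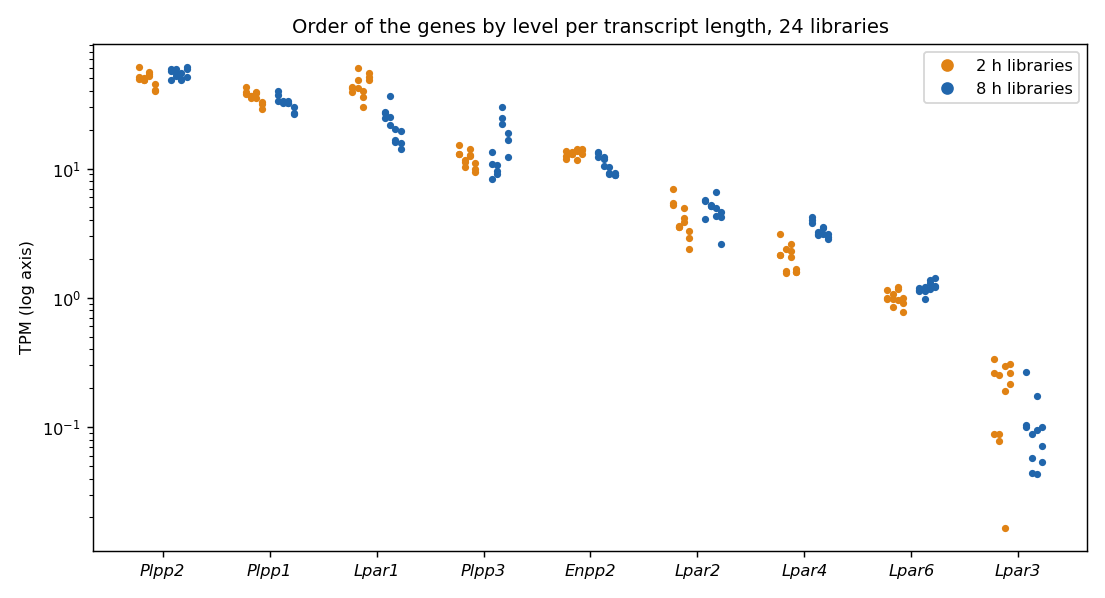
Level of each gene in TPM (transcript abundance per length, logarithmic axis) in each of the 24 libraries, ordered by mean. The phosphatases Plpp2 and Plpp1 and the receptor Lpar1 sit on top, and Lpar3 lies lowest, with a mean of 0.15 TPM.

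At the RNA level, the cells carried mainly 1 receptor gene and all 3 phosphatase genes. On the TPM scale, which is per transcript length and allows genes to be compared, the mean over 24 libraries was 52.0 for Plpp2, 34.3 for Plpp1, 33.4 for Lpar1, 13.8 for Plpp3, 11.9 for Enpp2, 4.5 for Lpar2, 2.72 for Lpar4, 1.11 for Lpar6 and 0.15 for Lpar3. Neighbours in this order were not all separated. In the vehicle libraries at 2 h the ranges of Lpar1 and Plpp1 overlapped, as did those of Plpp3 and Enpp2, and at 8 h those of Enpp2 and Plpp3, and of Lpar2 and Lpar4. Of other LPA or LPA-like receptor genes, Lpar5 had 12 counts in all 24 libraries and P2ry10 had 6, and neither passed the filter.

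A short transcript carried much of the Lpar1 level. Of its 8 annotated transcripts, 1 of 3512 nt carried 55.0% of the Lpar1 TPM on average (40% to 70.2% over libraries), and a transcript of 335 nt carried 37.1% (15% to 54.0%). In counts the balance was 41427 against 1477 over all libraries, since a short transcript turns few counts into a high TPM. Counting only transcripts of at least 1000 nt, an alternative added after seeing these lengths, Lpar1 was at 18.0 TPM and Plpp2 at 45.9 TPM. Plpp1 was split between 2 transcripts with 42.7% and 57.3% of its TPM, 1 transcript held 99.8% of Lpar2, and 3 transcripts of Enpp2 held 51.4%, 30.8% and 11.5%. The count-based fold changes below sum all transcripts of a gene.

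**Figure D2:**
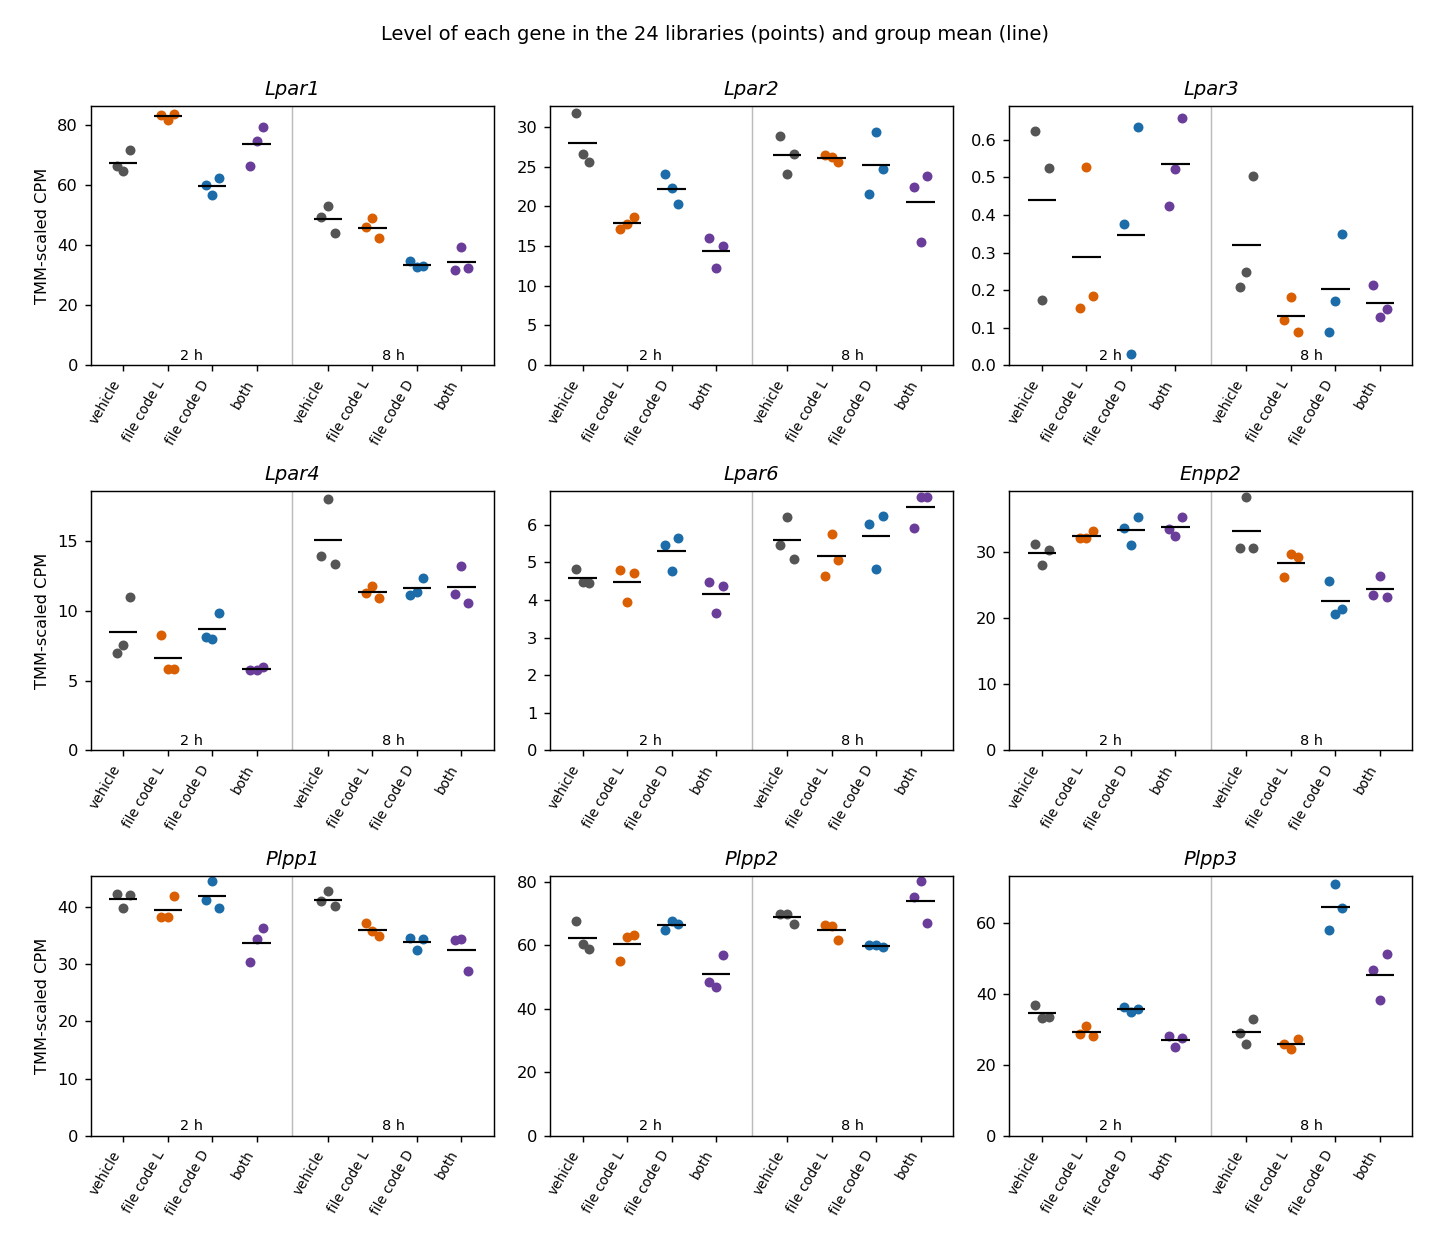
Library-scaled counts (CPM) in every library for each of the 9 genes, by group and time, 3 points a group with the mean as a bar. At 8 h the 3 code-D libraries of Plpp3 sit at 58.1 to 70.9 CPM, above the vehicle libraries at 25.7 to 32.8 CPM.

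Lpar1, the most abundant receptor, was lower at 8 h in every group and lowest there under code D and with both agents. With vehicle it was at 66.4, 64.5 and 71.5 CPM at 2 h and at 49.3, 53.1 and 44.0 CPM at 8 h. The groups did not overlap, and the change over time in vehicle was -0.47 ± 0.09 (log2 fold change ± SE; edgeR quasi-likelihood test, adjusted p = 0.00078). In that comparison 14.6% of all genes tested passed (5.88% higher and 8.69% lower), and of the 9 genes Lpar1 fell and Lpar4 rose. Fitted on these 2 groups alone, the Lpar1 difference was -0.45 with an adjusted p of 0.065, and with length-scaled TPM the adjusted p was 0.06.

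At 8 h Lpar1 was at 34.5, 32.8 and 33.1 CPM under code D and at 31.6, 39.2 and 32.3 CPM with both agents, below all 3 vehicle libraries. It fell by 0.54 ± 0.09 on the log2 scale under code D (edgeR adjusted p = 0.00016) and by 0.50 ± 0.09 with both (edgeR adjusted p = 0.00023; 0.055 when only these 2 groups were fitted). Under code L it was at 46.1, 49.0 and 42.2 CPM, overlapping the vehicle libraries (log2 fold change -0.09, edgeR adjusted p = 0.52), and both agents together were below code L (edgeR log2 fold change -0.41 ± 0.09, adjusted p = 0.0034). Both agents and code D differed by 0.04 at 8 h (edgeR adjusted p = 0.79).

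At 2 h the direction was the other way under code L: Lpar1 stood at 83.2, 81.6 and 83.8 CPM, above every vehicle library. The rise was 0.30 ± 0.09 (edgeR adjusted p = 0.024), but it is marginal. The adjusted p was 0.099 and 0.1 without vehicle replicate 1 or 2, 0.065, 0.058 and 0.061 without code-L replicate 1, 2 or 3, 0.088 with no filter on low counts and 0.22 with counts from length-scaled TPM. Both agents were at 66.3, 74.7 and 79.4 CPM at 2 h and code D at 60.1, 56.5 and 62.5 CPM. The difference between these 2 groups was 0.30 ± 0.09 (edgeR adjusted p = 0.018), and it missed the threshold without code-D replicate 2 (0.071) or both-agent replicate 2 (0.064) or 3 (0.066), and with no filter (0.063). The combined effect differed between the times, at -0.63 ± 0.12 for 8 h minus 2 h (edgeR adjusted p = 0.0018). The same difference was -0.39 ± 0.12 for code L (edgeR adjusted p = 0.083) and -0.37 ± 0.12 for code D (edgeR adjusted p = 0.069). Neither single-agent difference passed the threshold by edgeR.

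Lpar2 responded at 2 h, and downward. It was at 31.7, 26.5 and 25.5 CPM with vehicle, 17.2, 17.8 and 18.6 CPM under code L, 24.1, 22.3 and 20.3 CPM under code D and 16.0, 12.2 and 15 CPM with both. The code-L, code-D and both-agent libraries all lay below the lowest vehicle library. The log2 fold change against vehicle was -0.64 ± 0.14 under code L (edgeR adjusted p = 0.0028) and -0.95 ± 0.14 with both (edgeR adjusted p = 3.9e-05), a 1.94-fold fall. Under code D it was -0.33 ± 0.14 (edgeR adjusted p = 0.30), and both agents were lower than code D (-0.62 ± 0.14, adjusted p = 0.0032). Leaving out any 1 library kept the code-L fold change between -0.70 and -0.55 and the both-agent one between -1.03 and -0.85, with every adjusted p under the threshold.

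At 8 h Lpar2 under code L, at 26.5, 26.3 and 25.6 CPM, lay within the vehicle libraries at 28.9, 24 and 26.5 CPM. With both agents it was at 22.4, 15.4 and 23.9 CPM, narrowly below every vehicle library (log2 fold change -0.36 ± 0.14, edgeR adjusted p = 0.08). That fall passed with no filter (edgeR adjusted p = 0.028) and without both-agent replicate 3 (0.027). The difference of the code-L effect between the times was 0.62 ± 0.20 (edgeR adjusted p = 0.083), so the fall at 2 h was not shown to differ from the value at 8 h by this test. That difference was past the threshold with no filter on low counts (adjusted p = 0.013), in a fit of the 4 compared groups (0.031) and with DESeq2 (0.038).

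Lpar4 rose in culture with time. The vehicle libraries were at 7.02, 7.53 and 11 CPM at 2 h and at 14.0, 18.0 and 13.4 CPM at 8 h, without overlap, a 1.77-fold rise (log2 fold change 0.83 ± 0.16, edgeR adjusted p = 0.0011; 0.079 when only these 2 groups were fitted). With both agents at 2 h it was at 5.80, 5.77 and 5.97 CPM, below vehicle (-0.54 ± 0.16, edgeR adjusted p = 0.022) and below code D (-0.57 ± 0.16, edgeR adjusted p = 0.018). The first of these rests on vehicle replicate 3: without it the log2 fold change was -0.32 and the adjusted p 0.2, and without both-agent replicate 1 or 2 the adjusted p was 0.062 or 0.069. The second missed the threshold without code-D replicate 3 (0.086) or both-agent replicate 1 (0.058) or 2 (0.059). At 8 h the 3 treatments gave -0.41, -0.38 and -0.37, none past the threshold. Their libraries all lay below the lowest vehicle library, the nearest being both agents at 13.2 CPM against 13.4 CPM. The 3 comparisons share the vehicle libraries, so their like values are not independent. The code-L fall passed with no filter (edgeR adjusted p = 0.04) and without vehicle replicate 3 (0.046).

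Lpar6 and Lpar3 were not called in any of the 16 comparisons. Lpar6 ranged from 3.65 to 6.75 CPM over the 24 libraries. Its both-agent libraries at 8 h were at 5.92, 6.74 and 6.75 CPM against 5.47, 6.21 and 5.09 CPM with vehicle (log2 fold change 0.21 ± 0.13, edgeR adjusted p = 0.33). Lpar3 had 1 to 22 counts per library, and the code-D libraries at 2 h alone spanned 13, 1 and 21 counts. At this depth its changes were not detectable: the largest estimate against vehicle, under code L at 8 h, was -1.29 ± 0.76 (edgeR adjusted p = 0.27).

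**Figure D3:**
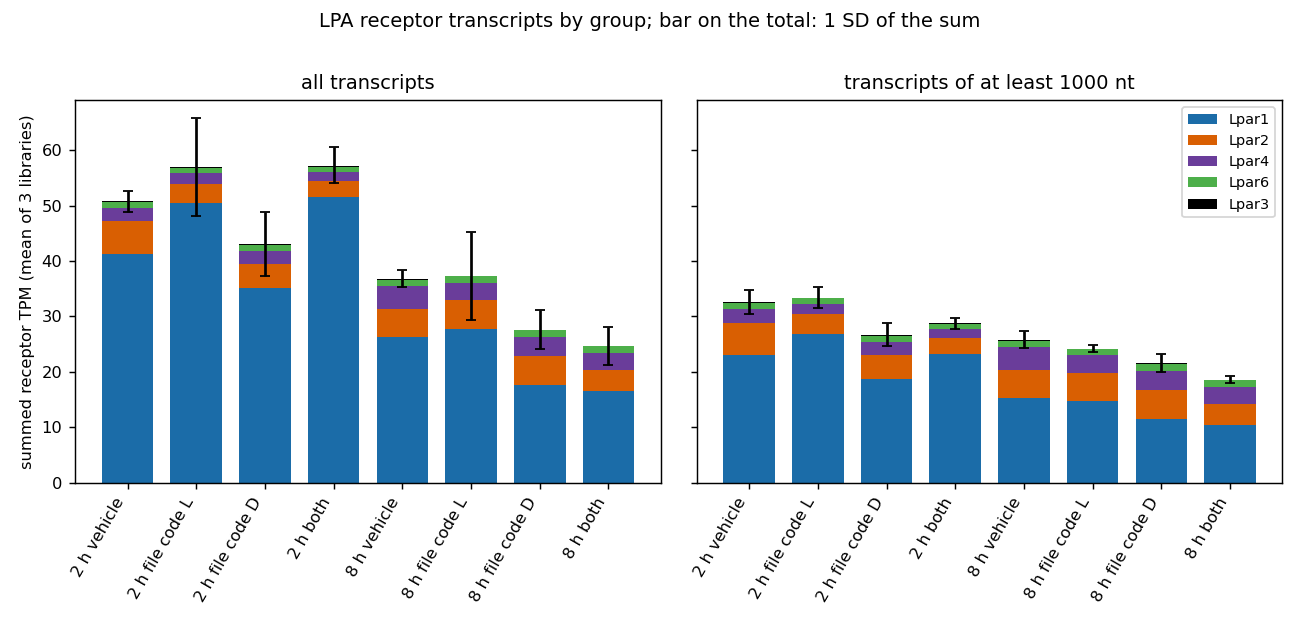
Summed TPM of the 5 receptor genes in each group, divided by gene, from all transcripts and from transcripts of at least 1000 nt. Lpar1 is the largest block in every group, and the sum is lower at 8 h than at 2 h in each treatment.

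Lpar1 made up most of the receptor TPM in every group, though its share was smaller at 8 h. With vehicle the 5 receptors summed to 50.8 ± 1.9 TPM at 2 h (SD, n = 3), of which Lpar1 was 81.1%, and to 36.8 ± 1.5 TPM at 8 h, of which it was 71.6%. With both agents the sums were 57.3 ± 3.2 TPM (90.2%) and 24.7 ± 3.4 TPM (66.7%). From transcripts of at least 1000 nt the vehicle sums were 32.6 ± 2.1 TPM (70.6%) and 25.8 ± 1.5 TPM (59.4%), and the both-agent sums 28.8 ± 1.0 TPM (80.4%) and 18.6 ± 0.65 TPM (56.0%). On this second scale the Lpar1 share was lowest under code D at 8 h, at 53.6%, with Lpar2 at 24.3% and Lpar4 at 15.7%. The order of vehicle and both agents at 2 h turns between these scales. The shares are descriptions with no test.

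Enpp2, which encodes autotaxin, fell at 8 h under code D and with both agents. The vehicle libraries were at 30.6, 38.4 and 30.7 CPM, the code-D libraries at 25.7, 20.6 and 21.4 CPM and the both-agent libraries at 23.6, 26.3 and 23.3 CPM. Neither group overlapped vehicle. The log2 fold change was -0.56 ± 0.09 under code D (edgeR adjusted p = 0.00028) and -0.45 ± 0.09 with both (edgeR adjusted p = 0.0017). In fits of only the 2 groups compared the values were -0.55 and -0.45, with adjusted p-values of 0.082 and 0.081. The code-L libraries, at 26.3, 29.7 and 29.3 CPM, also did not overlap vehicle. Their log2 fold change was -0.23 ± 0.09 (edgeR adjusted p = 0.11).

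None of the 3 treatments moved Enpp2 past the threshold at 2 h, when its libraries lay between 28.1 and 35.4 CPM and the log2 fold changes against vehicle were 0.12, 0.16 and 0.18. The difference between the times was itself tested: the code-D effect at 8 h was lower than at 2 h by -0.72 ± 0.13 (edgeR adjusted p = 0.0026) and the both-agent effect by -0.62 ± 0.13 (edgeR adjusted p = 0.004). In the vehicle cultures Enpp2 did not pass the threshold over time (0.15, edgeR adjusted p = 0.31).

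Plpp3, also known as LPP3, showed the largest change against vehicle among those past the threshold. At 8 h the vehicle libraries were at 29.1, 25.7 and 32.8 CPM and the code-L libraries at 25.8, 24.4 and 27.3 CPM. The code-D libraries were at 58.1, 70.9 and 64.3 CPM and the both-agent libraries at 46.6, 38.2 and 51.3 CPM, so code D was highest, both agents lay between, and neither overlapped vehicle. Plpp3 rose 2.21-fold under code D (log2 fold change 1.14 ± 0.10, edgeR adjusted p = 3.9e-08) and 1.55-fold with both (0.64 ± 0.10, edgeR adjusted p = 8e-05). Without any 1 library these values lay between 1.04 and 1.23 and between 0.53 and 0.74.

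Both agents together gave less Plpp3 than code D alone at 8 h (log2 fold change -0.51 ± 0.10, edgeR adjusted p = 0.00093; 0.058 in a fit of only these 2 groups) and more than code L (0.81 ± 0.10, edgeR adjusted p = 6.4e-06). The interaction, which asks whether the agents' log2 effects add, was -0.33 ± 0.14 (edgeR adjusted p = 0.11). Under code L Plpp3 was -0.18 ± 0.10 against vehicle (edgeR adjusted p = 0.25).

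At 2 h Plpp3 was instead lower with both agents, at 28.2, 25.1 and 27.5 CPM against 36.8, 33.2 and 33.6 CPM with vehicle. That fall was -0.36 ± 0.10 (edgeR adjusted p = 0.014; 0.052 without vehicle replicate 1 and 0.075 without both-agent replicate 2). The code-L libraries, at 28.7, 30.8 and 28.1 CPM, also lay below vehicle at 2 h (-0.24 ± 0.10, edgeR adjusted p = 0.13). Both agents overlapped code L (-0.12 ± 0.10, edgeR adjusted p = 0.83). Code D at 2 h, at 36.3, 35.0 and 35.7 CPM, had a log2 fold change of 0.05 (edgeR adjusted p = 0.84). The code-D effect was larger at 8 h than at 2 h by 1.09 ± 0.14 (edgeR adjusted p = 4.9e-05), and the both-agent effect by 0.99 ± 0.14 (edgeR adjusted p = 6e-05).

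Plpp1 and Plpp2, the more abundant phosphatases, moved less. Plpp1 with both agents was at 30.4, 34.5 and 36.4 CPM at 2 h against 42.4, 39.9 and 42.1 CPM with vehicle (log2 fold change -0.30 ± 0.08, edgeR adjusted p = 0.008; 0.064 without both-agent replicate 1 and 0.066 with no filter). Against code D it was -0.31 ± 0.08 (edgeR adjusted p = 0.0062, and 0.055 without both-agent replicate 1). Both comparisons use the same both-agent libraries, so their similar sizes are not independent. Under code L at 8 h Plpp1 was at 37.2, 35.8 and 35.1 CPM, without overlap with vehicle (-0.20 ± 0.08, edgeR adjusted p = 0.081). Both agents were at -0.15 ± 0.08 against code L then (edgeR adjusted p = 0.25). At 8 h Plpp1 was at 34.3, 34.4 and 28.9 CPM with both agents and at 34.7, 32.5 and 34.4 CPM under code D, against 41.1, 42.9 and 40.2 CPM with vehicle. The falls were -0.35 ± 0.08 (edgeR adjusted p = 0.0026; 0.09 in a fit of only these groups) and -0.29 ± 0.08 (edgeR adjusted p = 0.017; 0.074 without vehicle replicate 2, 0.065 without code-D replicate 2, 0.09 with no filter and 0.1 in a fit of only these groups).

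Plpp2 with both agents fell at 2 h, to 48.4, 46.9 and 56.9 CPM from 67.7, 60.4 and 58.8 CPM (log2 fold change -0.30 ± 0.08, edgeR adjusted p = 0.0097). The adjusted p was 0.071 without vehicle replicate 1, and 0.051 or 0.07 without both-agent replicate 1 or 2, and 0.05 with length-scaled TPM. Both agents were also below code D at 2 h (-0.39 ± 0.08, edgeR adjusted p = 0.0013). Without any 1 library the adjusted p of that difference was at most 0.014. At 8 h the order differed. Both agents were at 75.1, 80.0 and 66.9 CPM, and vehicle at 69.7, 69.8 and 66.5 CPM. Code D was at 60, 60 and 59.3 CPM, without overlap with vehicle. Its log2 fold change against vehicle was -0.20 ± 0.08 (edgeR adjusted p = 0.098, and 0.048 with DESeq2). Both agents were above code D (0.31 ± 0.08, edgeR adjusted p = 0.0075; 0.054 without both-agent replicate 2 and 0.064 in a fit of only these groups), and the interaction at 8 h was 0.40 ± 0.11 (edgeR adjusted p = 0.044). That interaction missed the threshold when any of 9 of the 12 libraries was left out, with adjusted p-values from 0.051 to 0.16; vehicle replicate 3, code-D replicate 1 and both-agent replicate 3 were the exceptions.

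**Figure D4:**
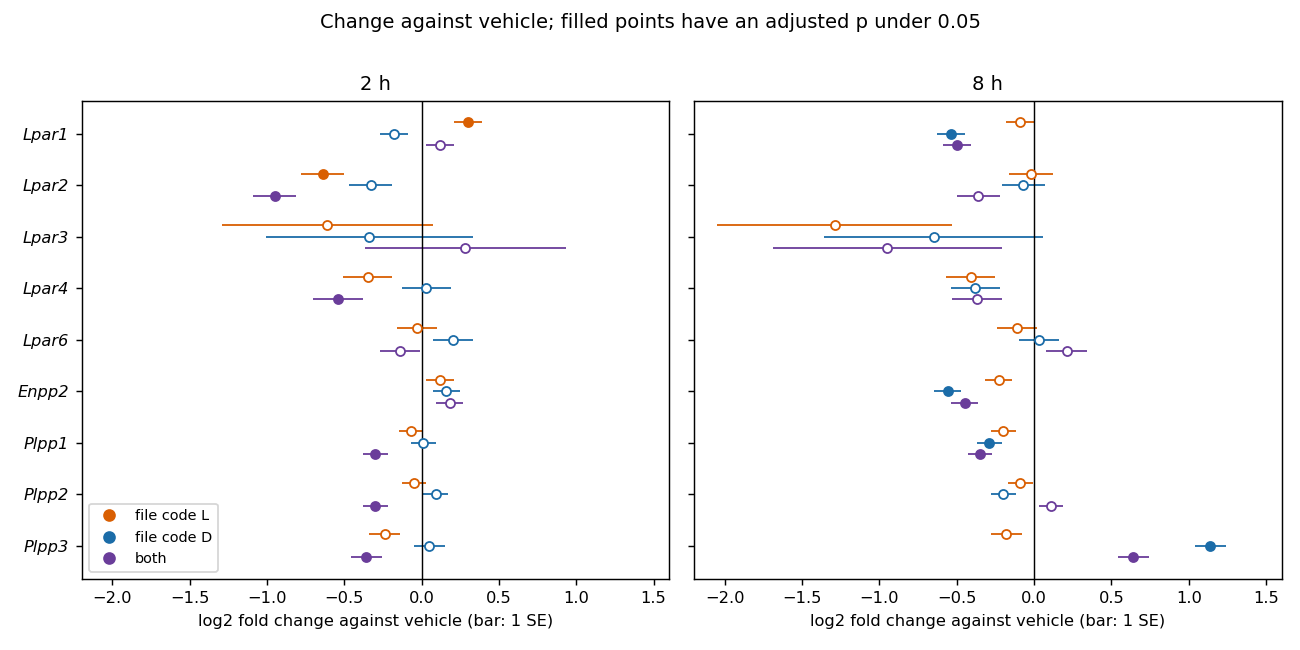
Log2 fold change against vehicle at the same time for each gene, with its standard error, under code L, code D and both agents at 2 h and 8 h. Plpp3 under code D at 8 h, at 1.14, is the largest rise past the threshold, and Lpar2 with both agents at 2 h, at -0.95, the largest fall past it.

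Counted over the 9 genes, code L at 2 h gave 1 rise (Lpar1) and 1 fall (Lpar2), where 13.9% of all genes tested were called (7.06% higher and 6.85% lower). Code D at 2 h gave 0 by edgeR and 0 by DESeq2, with 1 gene at an unadjusted p under 0.05, where 0.785% of all genes were called. Both agents at 2 h gave 0 rises and 5 falls (Lpar2, Lpar4, Plpp1, Plpp2 and Plpp3), where 19.9% of all genes were called (9.88% higher and 10% lower). Against code D at 2 h they gave 1 rise and 5 falls, where 18.7% were called (9.22% higher and 9.48% lower). Both comparisons use the same both-agent libraries. The median log2 fold change of the 9 genes with both agents at 2 h was -0.30, against 0.00 over all genes tested. The 5 falls became 2 without both-agent replicate 1 or 2, and 3 without vehicle replicate 1.

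At 8 h code L gave 0 by edgeR and 0 by DESeq2, with 3 genes at an unadjusted p under 0.05, where 16.2% of all genes were called. Code D gave 1 rise (Plpp3) and 3 falls (Lpar1, Enpp2 and Plpp1), where 12.0% were called (6.62% higher and 5.38% lower). Both agents gave the rise and the 3 falls of these 4 genes too, where 16.8% were called (9.54% higher and 7.25% lower). These 2 comparisons share the vehicle libraries. The median log2 fold change of the 9 genes at 8 h was -0.18 for code L, -0.29 for code D and -0.36 for both, against 0.00, 0.00 and 0.03 over all genes tested. Both agents against code L gave 1 rise and 1 fall, where 9.18% were called (5.74% higher and 3.43% lower). Against code D they gave 1 rise and 1 fall, where 22.9% were called (14.0% higher and 8.91% lower). Fitted on the compared groups only, the counts were 2 for code D and 1 for both agents at 8 h. The interaction called 1 of the 9 genes at 8 h (7.68% of all genes) and 0 at 2 h by edgeR and by DESeq2, with 2 at an unadjusted p under 0.05 (0.0365% of all genes). Both agents against code L at 2 h called 0 by edgeR and by DESeq2, with 3 at an unadjusted p under 0.05, where 0.767% of all genes were called. Between the times, 2 of the code-D effects (6.76% of all genes) and 4 of the both-agent effects (9.68%) differed. For code L the count was 0 by edgeR and 2 by DESeq2, with 3 at an unadjusted p under 0.05 (4.17% of all genes).

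Of 14 other lipid phosphate phosphatases and relatives, 9 were tested. Plpp5 was at 55.3 TPM on average, beside 52.0 TPM for Plpp2. The genes past the threshold were Lpin1 and Lpin3, which encode cytosolic phosphatidate phosphatases; the third lipin, Lpin2, at 8.6 TPM, passed in none of the 6 comparisons with vehicle. Lpin1 fell under code L at 2 h (log2 fold change -0.44 ± 0.14, edgeR adjusted p = 0.034) and with both agents at 2 h (-0.81) and 8 h (-0.61). Lpin3 fell under code L at 2 h (-0.72) and rose at 8 h under code D (0.74 ± 0.22, edgeR adjusted p = 0.028) and with both (1.07). The list's counts were 0 up and 2 down, 0 and 0, and 0 and 1 for code L, code D and both at 2 h, and 0 and 0, 1 and 0, and 1 and 1 at 8 h. Where edgeR called 0, 1 (code D, 2 h) and 3 (code L, 8 h) had an unadjusted p under 0.05. The medians ran from -0.27 (code D, 2 h) to 0.27 (code D, 8 h). In these 6 comparisons with vehicle the median over all genes tested lay between 0.00 and 0.03. Of all genes tested, 13.9%, 0.785% and 19.9% were called for code L, code D and both at 2 h. At 8 h these shares were 16.2%, 12.0% and 16.8%. Whether the counts of this list or of those below differ from these shares was not tested.

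Of the 26 other enzymes of LPA and phosphatidate metabolism, 24 were tested. With both agents 4 rose and 4 fell at 2 h, and 5 rose and 4 fell at 8 h. Under code D 0 moved at 2 h and 3 rose and 2 fell at 8 h, and under code L 1 rose and 0 fell at 2 h and 2 rose and 2 fell at 8 h. The medians lay between -0.09 and 0.10, and 6 had an unadjusted p under 0.05 where code D at 2 h called 0. Shares of all genes called were 13.9% (code L), 0.785% (code D) and 19.9% (both) at 2 h. They were 16.2%, 12.0% and 16.8% at 8 h. Dgkh, a diacylglycerol kinase that makes phosphatidate, rose under code L at 2 h (0.92 ± 0.20, edgeR adjusted p = 0.0023) and 8 h (1.18 ± 0.21, edgeR adjusted p = 0.00042). It also rose with both agents at 2 h (1.16 ± 0.20, edgeR adjusted p = 0.00017). The LPA acyltransferases Agpat3 (0.95 ± 0.13, edgeR adjusted p = 1.9e-05) and Agpat1 (1.07 ± 0.23, edgeR adjusted p = 0.0029) rose under code D at 8 h, and Agpat3 also with both (0.78). Gpam, a mitochondrial glycerol-phosphate acyltransferase, fell at 8 h under code L (-0.35), under code D (-0.36) and with both (-0.57).

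Of 26 G proteins and effectors used by LPA receptors, 25 were tested. Under code L 4 rose and 0 fell at 2 h and 3 rose and 1 fell at 8 h, under code D 0 moved at 2 h and 5 rose and 2 fell at 8 h, and with both agents 2 rose and 0 fell at 2 h and 2 rose and 1 fell at 8 h. The medians ran from -0.14 (code D, 2 h, where 0 had an unadjusted p under 0.05) to 0.30 (code D, 8 h). Shares of all genes called were 13.9% (code L), 0.785% (code D) and 19.9% (both) at 2 h. They were 16.2%, 12.0% and 16.8% at 8 h. At 8 h Gnaq, the Gq alpha subunit, rose under code D (0.99 ± 0.18, edgeR adjusted p = 0.00066), Rhoc rose with both (0.78 ± 0.10, edgeR adjusted p = 1.1e-05), and Plcb4, a phospholipase C, fell under code L (-0.46) and with both (-0.62).

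Receptor kinases and arrestins phosphorylate and uncouple active G protein-coupled receptors, and 6 of 7 listed genes were tested. Grk5 rose at 8 h under code D (1.19 ± 0.08, edgeR adjusted p = 3e-10) and with both agents (1.48 ± 0.08, edgeR adjusted p = 4.5e-12). Arrb1, beta-arrestin 1, rose under code D (1.16 ± 0.08, edgeR adjusted p = 5.2e-10) and with both (0.79 ± 0.08, edgeR adjusted p = 1.5e-07). Under code L at 8 h both genes fell instead, by 0.24 (Grk5) and 0.26 (Arrb1). At 2 h Arrb2 fell under code L (-0.31 ± 0.08, edgeR adjusted p = 0.0083) and with both (-0.55 ± 0.08, edgeR adjusted p = 1.8e-05). The counts were 0 up and 1 down, 0 and 0, and 1 and 2 at 2 h for code L, code D and both, and 0 and 2, 2 and 0, and 2 and 0 at 8 h. The medians ran from -0.15 (code D, 2 h, where 1 had an unadjusted p under 0.05) to 0.45 (code D, 8 h). Shares of all genes called were 13.9% (code L), 0.785% (code D) and 19.9% (both) at 2 h. They were 16.2%, 12.0% and 16.8% at 8 h.

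Marker genes moved with some of these results. Among the osteocyte and osteoblast markers (12 of 15 tested), 4 rose under code L, 2 under code D and 3 with both agents at 2 h, and the summed marker TPM at 8 h was 671 to 1330 with vehicle, 1750 to 1780 under code L, 2730 to 3030 under code D and 4060 to 4250 with both, where Spp1 (osteopontin) rose by 3.83 ± 0.11 (edgeR adjusted p = 1.2e-16). At 8 h 5 rose and 0 fell under code L, 2 rose and 1 fell under code D, and 4 rose and 2 fell with both. The falls were Cd44 under code D (-0.68 ± 0.07, edgeR adjusted p = 1.2e-06) and, with both agents, the osteoblast genes Alpl (-0.92 ± 0.26, edgeR adjusted p = 0.017) and Runx2 (-0.61 ± 0.18, edgeR adjusted p = 0.022). Spp1 and Col1a1, at 942 and 709 TPM on average, weigh most in the sum. Of the chondrocyte markers (2 of 5 tested), Sox9 rose under code L at 2 h (1.88 ± 0.22, edgeR adjusted p = 2.6e-06), where Lpar1 rose and Lpar2 fell, with both agents at 2 h (1.36) and under code L at 8 h (1.04). The list's sum was 5.41 to 7.38 TPM under code L at 2 h against 1.83 to 2.74 with vehicle, while Col2a1 and Acan had at most 8 and 6 counts in a library. Of the skeletal muscle markers (3 of 5 tested), Des fell under code L at 8 h (-1.09 ± 0.34, edgeR adjusted p = 0.033). Of the adipocyte (1 of 5 tested), macrophage and blood (3 of 5) and endothelium (2 of 5) markers, 0 passed against vehicle by edgeR, and at most 1 of a list had an unadjusted p under 0.05. Shares of all genes called were 13.9% (code L), 0.785% (code D) and 19.9% (both) at 2 h. They were 16.2%, 12.0% and 16.8% at 8 h. The part of these markers in the results was not tested. In bulk RNA, fewer cells of a type and less RNA per cell cannot be told apart.

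The genes with patterns most like each of the 9 were found by Pearson correlation over the 8 group means of log2 CPM, as a description; the points share their libraries. For Lpar1 these were Gadd45g (0.99), Trim16 (0.986) and Wsb2 (0.985), for Lpar2 Map3k4 (0.972), Rab3il1 (0.971) and Glyctk (0.966), and for Lpar4 Ttll1 (0.991), Bcs1l (0.989) and Gatc (0.987). For Enpp2 they were Postn (0.97), which encodes periostin, Tgtp2 (0.966) and St3gal6 (0.96). For Plpp3 they were Tm7sf3 (0.981), Eya2 (0.974) and Pla2g5 (0.962), for Plpp1 Tbc1d25 (0.94), Faf2 (0.94) and Mettl25 (0.931), and for Plpp2 Fdx1l (0.982), Cops7a (0.964) and Tspan31 (0.961). Lpar6 was closest to Cdk5rap1 (0.986), and the sparse Lpar3 reached 0.911 at most, with Mbnl3.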

How the data were processed

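RNA from 24 Ocy454 libraries was sequenced after extraction with a column kit, per the labels' protocols. Each library has a table of estimated counts and TPM per transcript, deposited by the authors; per the submitters' processing notes the build was mm39. The tool behind the estimates was not given in the sources used here. The deposited TPM values are per transcript length and are scaled to a fixed library sum, so they keep no depth. Transcript IDs were matched to GENCODE M21 names (135078 of 139145, 97.08%, holding at least 99.45% of counts) and summed per gene.

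Estimated counts were rounded and tested with edgeR 4.0.16 (R 4.3.3; quasi-likelihood F test, TMM scaling, filterByExpr with a minimum count of 10, all 8 groups in 1 fit with 16 residual degrees of freedom, Benjamini-Hochberg over 16424 genes, threshold 0.05) in 16 comparisons. CPM use TMM-scaled library sizes. On data simulated for code L against vehicle at 2 h, 43% of genes changed at the smaller fold and 98% at the larger, 2-fold, were recovered. Every simulated gene had the same biological coefficient of variation, 0.131, and only genes above 1 CPM were changed. Recovery of smaller changes, or of genes with another spread, was not simulated. Between libraries of a group, counts differed beyond sampling noise, with a chi-square of 6.54 to 118 per degree of freedom.

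Named genes were the 9 members, up to 2 genes per list, direction and comparison with vehicle with the smallest p past the threshold, the 2 label-check genes, marker genes, and the 3 most alike in pattern with a mean of at least 1 CPM. The members and lists were chosen with earlier results of these data known. Alternatives were DESeq2 1.42.0, median-of-ratios scaling, no filter, length-scaled TPM, the compared groups only, a replicate block and leaving out each library. Levels were recomputed without mitochondrial genes, from protein-coding transcripts and from transcripts of at least 1000 nt. Results on some listed genes are not reported here.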

Additional observations from a re-analysis of the deposited data

Results flagged for a closer look

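Some effects differed between the times or between the agents by a test of the difference itself (edgeR quasi-likelihood, log2 scale). Between 8 h and 2 h, the code-D effect (file code D, titled LPA) differed by 1.09 ± 0.14 for Plpp3 (adjusted p = 4.9e-05) and by -0.72 ± 0.13 for Enpp2 (adjusted p = 0.0026). The both-agent effect differed by 0.99 ± 0.14 for Plpp3 (adjusted p = 6e-05), -0.63 ± 0.12 for Lpar1 (adjusted p = 0.0018), -0.62 ± 0.13 for Enpp2 (adjusted p = 0.004) and 0.40 ± 0.11 for Plpp2 (adjusted p = 0.023). Plpp2 also had an interaction of the agents at 8 h of 0.40 ± 0.11 (adjusted p = 0.044). The Plpp2 values are the least firm: the time difference missed the threshold without vehicle replicate 1 or both-agent replicate 1 or 2 of 2 h, or without vehicle replicate 3 or both-agent replicate 1 or 2 of 8 h (6 of 12 libraries, adjusted p 0.056 to 0.096), with no filter (0.13), with length-scaled TPM (0.097) and in a fit of only the compared groups (0.14), and the interaction when any of 9 of 12 libraries was left out.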

How the results depend on the processing

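Of 34 called results on the 9 genes, 34 kept their call under DESeq2, 34 under median-of-ratios scaling and 34 with the replicate number as a block; 29 kept it with counts from length-scaled TPM, 28 with no filter and 23 in fits of only the compared groups. Leaving out 1 library gave 246 values, of which 207 kept the call, 39 lost it and 0 reversed. Libraries with the same replicate number did not deviate together (mean correlation -0.004 over 84 pairs, 6 of them over 0.1, against 0.00206 over 168 pairs with different numbers), so the block rests on a shared number only. The number of the 9 genes past the threshold became 1 for code L at 2 h (main 2) with no filter and with length-scaled TPM; 1 for code L at 8 h (main 0) with no filter; 1 (main 0) with no filter or the compared groups and 2 with DESeq2 for the code-L effect between times; and 4 (main 2) with DESeq2 for the code-D effect between times. In fits of the compared groups it became 2 for code D and 1 for both agents against vehicle at 8 h (main 4 each), 0 for both against code D at 8 h (main 2) and 0 for vehicle over time (main 2; 1 with length-scaled TPM). The 8 h interaction became 0 (main 1) with no filter, length-scaled TPM or the compared groups. Leaving out 1 library, the counts ranged from 1 to 2 for code L at 2 h, 2 to 5 for both agents at 2 h, 0 to 1 for both against code L at 2 h, for code L at 8 h and for the code-L effect between times, 1 to 2 for both against code D at 8 h, and 0 to 3 for the 8 h interaction.

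Reversals concerned values that were not called. With length-scaled TPM, Lpar1 under code L at 8 h was 0.01 and Lpar6 under code D at 8 h -0.0024. Without 1 library, Lpar2 under code L at 8 h ranged from -0.08 to 0.04, Lpar3 with both agents at 2 h from -0.10 to 0.61 and under code D at 2 h from -1.1 to 0.19, Lpar4 under code D at 2 h from -0.10 to 0.25, Lpar6 under code D at 8 h from -0.05 to 0.11 and under code L at 2 h from -0.08 to 0.05, Plpp1 under code D at 2 h from -0.04 to 0.04 and Plpp2 under code L at 2 h from -0.09 to 0.01. The cause was not tested. Over all genes, the calls for code D at 2 h were 129, against 315 with DESeq2 and 373 with no filter, for both against code L at 2 h 126, against 214 and 258, and for the 2 h interaction 6, against 88 with no filter and 1 in the compared groups. At 8 h, code D had 1971 calls, against 3006 with no filter and 565 in the compared groups; code L 2662 against 1287, both agents 2758 against 988 and both against code D 3765 against 1263 in the compared groups; both against code L 1507 against 2386 and 807; and the interaction 1262 against 3094 with no filter, 479 with length-scaled TPM, 13 in the compared groups and 3446 with DESeq2. Vehicle over time had 2393 against 413 in the compared groups. Between times, the code-L effect had 685 calls against 1046 with no filter and 373 with length-scaled TPM, the code-D effect 1110 against 3065 with no filter, 2366 with DESeq2 and 443 in the compared groups, and the both-agent effect 1590 against 993 with length-scaled TPM and 743 in the compared groups. Without 1 library, the calls over all genes ranged from 69 to 96 for code D, 1487 to 2084 for code L, 74 to 107 for both against code L and 0 to 7 for the interaction at 2 h. At 8 h they ranged from 1518 to 3408 for code L, 1051 (without code-D replicate 2) to 3302 (without vehicle replicate 3) for code D, 886 to 1936 for both against code L, 1943 to 4263 for both against code D, and 30 (without both-agent replicate 2) to 4203 (without both-agent replicate 3) for the interaction. Between times they ranged from 449 to 797 for code L and 378 to 3368 for code D, so the shares of all genes set beside the 9 move with single libraries. Depth limits Lpar3, with a median of 7 counts per library. Leaving mitochondrial genes out of the TPM moved 63 of 72 group levels by more than 1 SD. That step raises every remaining gene of a library by the same factor, so their order within the library cannot change. With protein-coding transcripts alone 10 levels moved, and with transcripts of at least 1000 nt 15 moved.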
